A study of Mus musculus with 28 samples.

Results

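The Obox cluster is a group of homeobox genes on mouse chromosome 7. Its members were taken as the protein-coding genes of the mm10 annotation (GENCODE M21) whose symbol starts with Obox, which gave 7 of the 21755 protein-coding genes of chromosomes 1 to 19 and X. The study mapped H3K9me2, the histone methylation of silent chromatin made by EHMT2 and its partner EHMT1, with ULI-NChIP, an immunoprecipitation of native chromatin suited to low cell numbers. The deposited data are lists of H3K9me2 domains, stretches of chromosome with high mark relative to input, and the question is where the Obox genes lie in them when EHMT2 is present or depleted, in embryonic stem cells (mESCs) and in 2-cell-like cells (2CLCs).

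All cells came from a BL6/129 hybrid mESC line with a dTAG degron, HA tags and an mCherry reporter at the endogenous Ehmt2 gene. DMSO cells therefore carry the tagged allele as well. For 4 conditions, cells of 1 clone with a MERVL-GFP reporter, which lights up in 2CLCs, were kept for 72 h in DMSO or in dTAG-13, the compound that degrades the tagged EHMT2, and were sorted by GFP into mESCs and 2CLCs. These conditions are called mESC DMSO, mESC dTAG, 2CLC DMSO and 2CLC dTAG, and each rests on 3 immunoprecipitation and 3 input libraries and has 1 list of domains. There are also 2 immunoprecipitation and 2 input libraries of unsorted mESCs treated with DMSO for 24 h, and a further list, called the unnamed set, that names neither cell state nor treatment. TTNBP, an agonist of retinoic acid receptors, was also given to sorted cultures, to 2 of the replicates by the labels and with no such limit by the methods, so its part cannot be told apart from the rest. With 1 list per condition there is no spread between replicates, no test was possible, and every difference below is between lists.

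OBOX proteins are homeodomain transcription factors of the oocyte and early embryo. Obox1, Obox2, Obox5 and Obox7 are known as maternal members and Obox3 as a member switched on in the embryo, and the family is known for its part in zygotic genome activation, the start of transcription in the 2-cell embryo. 2CLCs are a rare state in mESC cultures that expresses genes of that stage, and H3K9me2 domains are known as broad blocks that cover gene-poor, silent parts of chromosomes.

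The Obox genes run in the order Obox8, Obox7, Obox2, Obox1, Obox3, Obox5, Obox6 over 1508 kb of the chromosome, chr7:14331436-15839678. Obox8 (ENSMUSG00000099216.1) lies first and is 326 kb from Obox7. The widest interval between neighbours, 723 kb, separates Obox7 from Obox2. The annotation starts Obox2 and the longest Obox1 transcript 227 bp apart, and Obox1 and Obox3 each span over 160 kb and overlap. GENCODE places 46 further Obox loci inside the same 1508 kb, all but 1 of them pseudogenes, 39 named for Obox4 and 7 for Obox3. No protein-coding Obox4 gene is in this annotation.

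The promoters show how alike the members are. Windows of 250 bases before and 50 after the annotated start were found for 5 of the 7 genes in the RefSeq table (GRCm38.p6), and Obox6 and Obox8 have no entry. The 5 windows are printed 5′ to 3′ in lower case. Capitals mark the 25-base run that all 5 hold and, downstream of it, the 42-base run held by the 4 windows other than that of Obox2.
Obox7 (chr7:14659458-14659757, plus strand): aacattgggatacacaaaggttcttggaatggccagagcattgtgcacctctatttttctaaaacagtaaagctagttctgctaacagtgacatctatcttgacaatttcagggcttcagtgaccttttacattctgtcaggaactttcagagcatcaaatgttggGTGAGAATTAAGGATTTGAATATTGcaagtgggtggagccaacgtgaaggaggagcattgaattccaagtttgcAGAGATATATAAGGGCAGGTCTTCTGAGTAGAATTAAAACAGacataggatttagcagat
Obox2 (chr7:15388601-15388900, plus strand): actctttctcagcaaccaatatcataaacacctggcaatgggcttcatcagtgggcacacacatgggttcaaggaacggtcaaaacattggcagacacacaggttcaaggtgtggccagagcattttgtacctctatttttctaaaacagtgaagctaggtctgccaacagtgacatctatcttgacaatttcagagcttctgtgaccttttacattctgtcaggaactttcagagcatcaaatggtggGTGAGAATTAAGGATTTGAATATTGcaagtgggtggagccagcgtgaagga
Obox1 (chr7:15547007-15547306, plus strand): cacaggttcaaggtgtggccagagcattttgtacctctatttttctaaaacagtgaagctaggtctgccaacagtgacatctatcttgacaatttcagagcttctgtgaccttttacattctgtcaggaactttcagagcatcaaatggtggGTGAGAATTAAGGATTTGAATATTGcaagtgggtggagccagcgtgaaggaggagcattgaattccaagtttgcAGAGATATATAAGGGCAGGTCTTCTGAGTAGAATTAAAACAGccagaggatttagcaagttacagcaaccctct
Obox3 (chr7:15639728-15640027, minus strand): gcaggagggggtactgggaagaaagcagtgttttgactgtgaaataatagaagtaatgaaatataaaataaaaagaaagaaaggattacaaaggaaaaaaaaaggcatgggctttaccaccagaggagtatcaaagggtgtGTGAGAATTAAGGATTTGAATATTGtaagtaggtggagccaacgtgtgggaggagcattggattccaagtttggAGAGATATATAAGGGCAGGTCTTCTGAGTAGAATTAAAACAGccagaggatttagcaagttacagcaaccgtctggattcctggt
Obox5 (chr7:15750120-15750419, plus strand): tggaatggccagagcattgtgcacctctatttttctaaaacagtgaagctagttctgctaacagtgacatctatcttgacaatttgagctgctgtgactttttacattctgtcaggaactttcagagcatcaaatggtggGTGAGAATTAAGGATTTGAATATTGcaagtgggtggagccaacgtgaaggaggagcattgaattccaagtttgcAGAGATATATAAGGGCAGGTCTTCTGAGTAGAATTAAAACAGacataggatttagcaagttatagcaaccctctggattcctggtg

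The 42-base run holds the letters TATATAA, the core of a TATA box. These letters, read on both strands, occur in 4 of the 5 Obox windows and in 3.24% of all 32851 promoter windows of the table. The 4 windows hold them inside the same shared run, so they are copies of 1 sequence and not 4 separate cases. The run begins at -10 bases from the annotated start in Obox7, -24 in Obox1, -35 in Obox3 and -36 in Obox5. The window of Obox2 ends before the run, which is present just downstream at chr7:15388924-15388965, since the annotated Obox2 start lies farther upstream in the shared sequence. TAATCC, the letters bound by CRX and OTX homeodomains, was in the Obox3 window as its reverse complement GGATTA and in none of the other 4, against 7.06% of all windows, and the homeodomain core TAATTA was in 0 of the 5 against 5.29%. Obox2 and Obox1 share 203 aligned bases with 100% identity, the Obox7 and Obox5 windows are 97.1% identical over 274 bases, and that of Obox3 differs most, with 62.6 to 75.5% identity to the other 4. On the whole of chromosome 7 the 25-base run occurs 12 times on either strand and the 42-base run 19 times. All of these copies lie inside the 1508 kb of the cluster, 5 of each within 1 kb of an annotated Obox transcript start. Of the rest, 6 and 9 are within 10 kb of an Obox pseudogene, and 1 and 5 are near neither. The runs were taken from windows at Obox starts, so copies at those starts were fixed in advance. The share of the cluster within 10 kb of a pseudogene was not computed.

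All 7 Obox gene starts lay inside an H3K9me2 domain in each of the 4 sorted conditions and in the unnamed set. Over all protein-coding genes, the share of starts inside domains in mESCs was 22.3% with DMSO and 23.6% with dTAG, in 2CLCs 23.2% and 26.5%, and in the unnamed set 30.0%, while 15.1% of genes were inside in all 4 sorted sets. No Obox start left a domain in dTAG, where 22.7% of the starts inside mESC DMSO domains and 18.3% of those inside 2CLC DMSO domains did. Every base of the 7 gene bodies was covered in each of the 5 sets, and all 23 distinct starts of the 26 annotated Obox transcripts were inside. Because the 7 genes sit side by side, these counts repeat 1 location and are not 7 separate observations. A list of positions gives no height of the mark within a domain, and a call on a population of cells cannot tell a mark in all cells from a mark in a part of them.

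**Figure D1:**
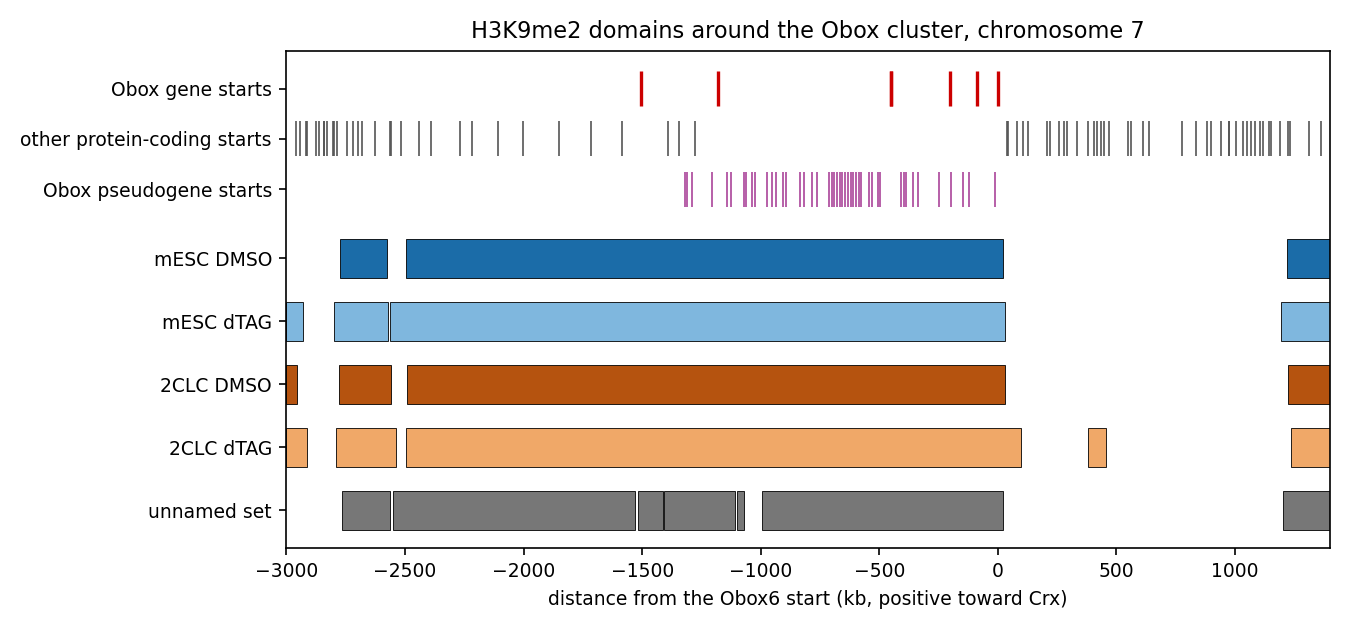
Horizontal bars show H3K9me2 domains in the 5 sets against distance from the Obox6 start in kb, with ticks above for the starts of Obox genes, other protein-coding genes and Obox pseudogenes. In the 4 sorted sets 1 domain spans all 7 Obox starts and ends near Obox6, and in the unnamed set the same stretch is in pieces.

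In each sorted set the 7 starts were in 1 and the same domain. In mESCs it ran over chr7:13344645-15859640 with DMSO, a width of 2515 kb, and over chr7:13274645-15869640 with dTAG, a width of 2595 kb. In 2CLCs it ran over chr7:13349645-15869640 with DMSO, 2520 kb, and over chr7:13344645-15939640 with dTAG, 2595 kb. Widths in the lists are multiples of a 5 kb bin, and each bin is an average over 10 kb, so a shift of 1 bin is at the limit of the grid. The stretch common to the 4 sets was 2510 kb, 94.2% of what any of them covered.

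This was among the widest domains of each set. By width it held rank 56 of 4323 in mESC DMSO and rank 48 of 7312 in mESC dTAG, where the median domain was 140 and 60 kb wide. In 2CLCs its rank was 76 of 4246 with DMSO and 34 of 8820 with dTAG, with medians of 115 and 60 kb. On chromosome 7 alone its rank was 4 to 6. The whole 1508 kb from Obox8 to Obox6 was covered in the 4 sorted sets, against 44.3 to 50.7% of chromosome 7 and 46.3 to 53.7% of chromosomes 1 to 19 and X.

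The domain was called in 1 piece after EHMT2 depletion in both cell states. The paper reports that depletion lowered the global level of H3K9me2 in both. It counts Obox loci among the clusters of genes that EHMT2 represses together. For such clusters it proposes that the H3K9me2 domains resolve fully when EHMT2 is lost. Domains were called from percentiles of the ratio to input. A domain kept or widened in dTAG therefore does not show that the amount of mark was kept, and does not decide that proposal. Of 321 mESC DMSO domains of at least 1 Mb, 47 (14.6%) lay whole inside 1 dTAG domain, and the median of them met 3 dTAG domains. In 2CLCs this held for 28 of 308 (9.09%), with a median of 4 dTAG domains. The Obox domain was one of the 47 and one of the 28, with 100% of its DMSO bases in 1 dTAG domain each time. The median wide domain kept 97.1% of its bases in mESCs and 96.4% in 2CLCs.

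The members differed in how deep they lay. Obox7 was farthest from a border, at 1200 kb with DMSO and 1210 kb with dTAG in mESCs, and at 1210 and 1280 kb in 2CLCs. Obox8, on the other side of the midpoint, was 984 to 1059 kb from the left border. Obox2 and Obox1 were 471 to 551 kb from the right border.

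Obox3 was 220 to 300 kb inside, and Obox5 110 to 190 kb. Obox6, the last member, was 20.0 kb from the right border with DMSO and 30.0 kb with dTAG in mESCs, and 30.0 and 100.0 kb in 2CLCs. It was the only member within 100 kb of a border in the sorted sets, and the border lay nearest to it in mESC DMSO. The median over the 7 starts was 471, 481, 481 and 551 kb, where the median protein-coding start inside a domain lay 105, 55.6, 116 and 43.6 kb from a border. Obox1 was placed here by its longest transcript, and its RefSeq start lies 158309 bp farther right, inside the same domain.

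**Figure D2:**
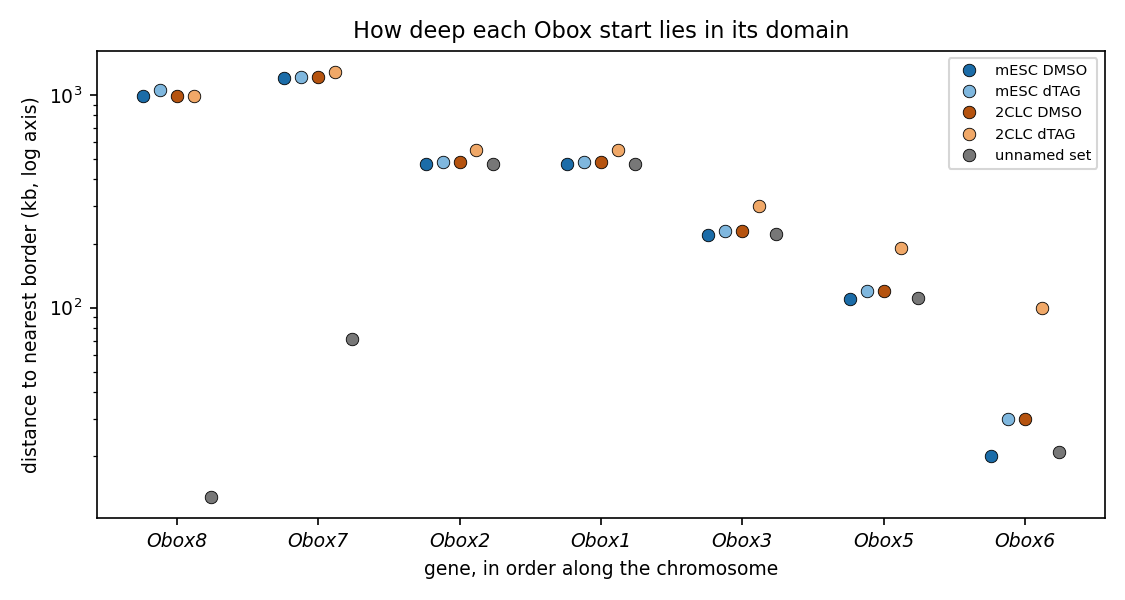
Each point is the distance in kb, on a log axis, from an Obox start to the nearest border of the domain that holds it, with genes in chromosome order and 1 colour per set. In the sorted sets distances fall from Obox7 to Obox6, the 2CLC dTAG points are highest for every gene from Obox7 to Obox6, and the unnamed set is low only for Obox8 and Obox7.

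Beside the Obox genes, the domain held 12 other protein-coding starts in mESC DMSO and the same number in 2CLC DMSO, and 15 in each dTAG set. All 4 sorted sets had 8 genes of the Sult2a family, sulfotransferases for steroids and bile acids, in it. Of these, Sult2a5, Sult2a2, Sult2a1, Sult2a4, Sult2a3 and Sult2a6 lie left of Obox8, and Sult2a8 and Sult2a7 lie between Obox8 and Obox7. Vmn1r90, a vomeronasal receptor gene, lies there too. The remaining 3, next to the left border, are Cabp5, which encodes a calcium-binding protein of the retina, and Bsph1 and Bsph2, which encode sperm-binding proteins. Between Obox7 and Obox6 no other protein-coding gene starts.

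On the right, the border lay between Obox6 and Crx in mESC DMSO, inside Crx in mESC dTAG and 2CLC DMSO, and inside Nop53 in 2CLC dTAG. The nearest starts outside were those of Crx, Crxos and Selenow in mESC DMSO, mESC dTAG and 2CLC DMSO, and Nop53, Ehd2 and Bicra in 2CLC dTAG. Crx encodes the cone-rod homeobox factor of photoreceptors, and its start lies 40.3 kb from that of Obox6. No base of Crx was in a domain in mESC DMSO, 26.3% of it, at its 3′ end, in mESC dTAG and in 2CLC DMSO, and all of it in 2CLC dTAG. Crxos, a homeobox gene on the opposite strand beside Crx, and Selenow, which encodes selenoprotein W, were outside in the other 3 sorted sets and whole inside in 2CLC dTAG. A start inside a domain in 2CLC dTAG and in no other sorted set was found for 3.43% of protein-coding genes.

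Nop53, a ribosome biogenesis gene, is followed by a gene-rich stretch. From the border to the next domain of at least 500 kb lay 1135 to 1200 kb with 37 to 39 protein-coding starts, 31.7 per Mb in mESC DMSO, against 7.57 per Mb in the Obox domain. No domain was called in this stretch in mESC DMSO, mESC dTAG, 2CLC DMSO or the unnamed set. In 2CLC dTAG it held 1 domain, of 75 kb, with the starts of Dhx34, C5ar2, C5ar1, Inafm1 and Ccdc9.

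On the left, the border was near Pla2g4c, a phospholipase gene, and the DNA ligase gene Lig1. A second, narrower domain with the vomeronasal receptor genes Vmn1r85 to Vmn1r89 lay beyond it. The gap between the domains was 80 kb with DMSO and 5 kb, a single bin, with dTAG in mESCs, and 70 and 45 kb in 2CLCs.

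The starts of Lig1, Zswim9 and Pla2g4c fell into this gap in mESC DMSO and inside the Obox domain in mESC dTAG. In 2CLC DMSO and 2CLC dTAG, the Lig1 and Zswim9 starts were in the neighbouring Vmn1r domain and that of Pla2g4c was in neither. Of starts outside domains in DMSO, 8.14% were inside in dTAG in mESCs and 9.80% in 2CLCs. The next gene beyond the Vmn1r genes, Mzf1, which encodes a zinc finger factor, had its start outside domains in both DMSO sets and the unnamed set and inside that narrower domain in both dTAG sets. Farther left, the starts of Trim28, which encodes a heterochromatin co-repressor, Chmp2a and Ube2m were outside domains in the 5 sets.

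**Figure D3:**
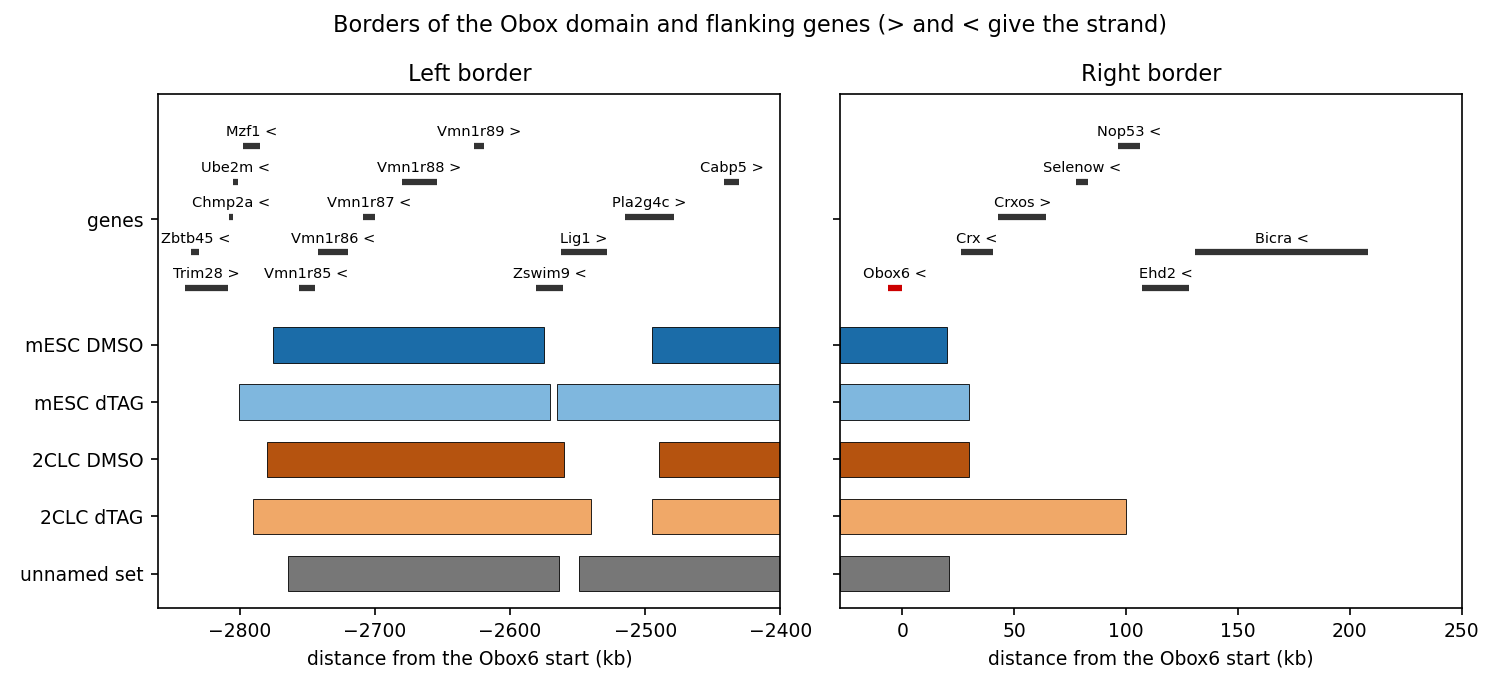
The left and the right border of the Obox domain are drawn with the bodies of flanking genes above, against distance from the Obox6 start in kb. The mESC dTAG bar reaches 70 kb farther left than mESC DMSO, over Lig1 and Pla2g4c, and the 2CLC dTAG bar reaches 70 kb farther right than 2CLC DMSO, over Crx, Crxos and Selenow.

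In dTAG both borders lay farther out than in DMSO, by different amounts in the cell states. The smallest shift, 5 kb at the left border in 2CLCs, is 1 bin and at the limit of the grid. In mESCs the left border moved by 70 kb and the right border by 10 kb, and the domain widened by 80 kb. In 2CLCs the left border moved by 5 kb and the right border by 70 kb, and the domain widened by 75 kb. The left border depends on how gaps are treated: with domains up to 50 kb apart joined, its shift was 305 kb in mESCs and 300 kb in 2CLCs, 1 bin apart, while the right border shifts stayed at 10 and 70 kb. Whether the cell states differ in which border moved could not be tested with 1 list each.

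Among domains paired one to one between DMSO and dTAG, a border moved outward by at least 50 kb in 2.40% of 3042 borders in mESCs and 2.81% of 3340 in 2CLCs. For pairs whose DMSO domain was at least 1 Mb wide, it was 2.00% of 50 and 5.56% of 36. Over all pairs the median shift was -5 kb in mESCs, which is inward, and 0 kb in 2CLCs. Among the wide pairs it was 0 kb in both. Both borders of a pair moved outward, with shifts of 1 bin counted, in 9.73% and 11.5% of all pairs. Among the wide pairs this held for 12% of 25 in mESCs and 16.7% of 18 in 2CLCs. The 50 kb limit was set after the Obox shifts were seen, and the Obox domain is itself in these counts.

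Between the cell states with EHMT2 present, the borders were close. In 2CLC DMSO the left border was 5 kb farther in and the right border 10 kb farther out than in mESC DMSO. In dTAG, the left border of 2CLCs was 70 kb farther in and the right border 70 kb farther out than in mESCs, so the width was equal and the position was not.

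**Figure D4:**
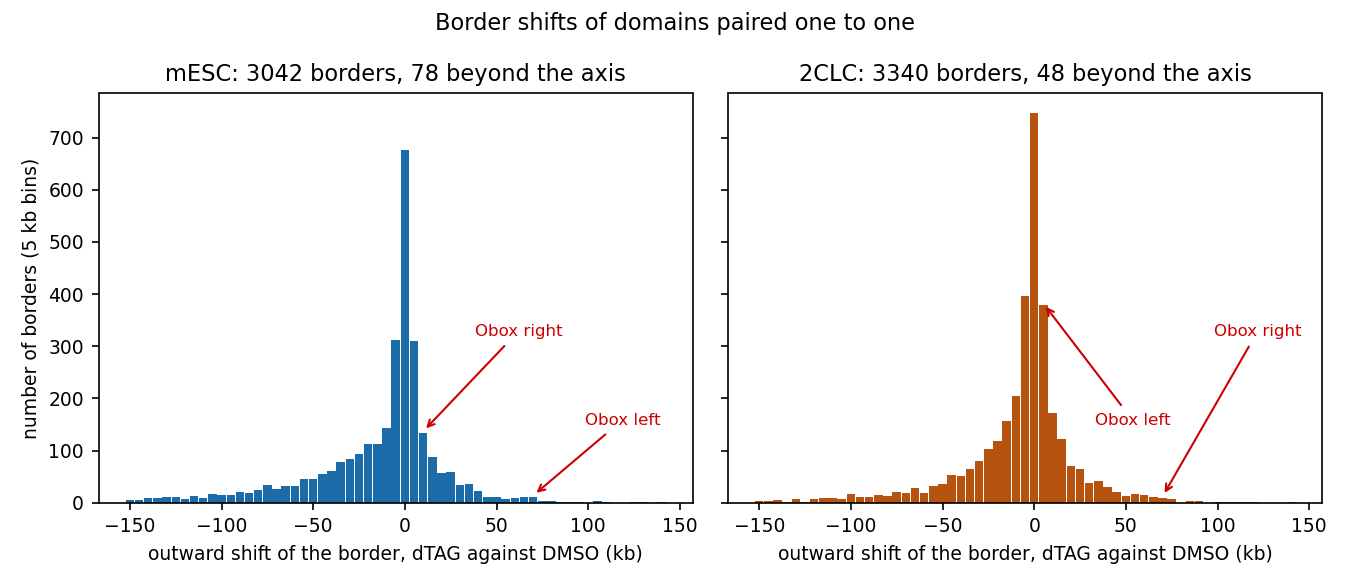
Bars count borders of domains paired one to one by their outward shift in kb from DMSO to dTAG, in mESCs and 2CLCs, in 5 kb bins, and arrows mark the Obox borders. Of the 3042 and 3340 borders, 78 and 48 lie beyond 150 kb on either side, and the 70 kb Obox shifts stand in the thin right tail of both distributions.

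In the unnamed set the stretch was broken into pieces. Obox8 was in a domain of 105 kb and 12.9 kb from its border, Obox7 in one of 300 kb and 71.1 kb from its border. Obox2, Obox1, Obox3, Obox5 and Obox6 shared one of 1015 kb. Between the pieces were gaps of 5, 10 and 75 kb, which left 94.0% of the cluster covered. The 75 kb gap between Obox7 and Obox2 held Obox4-ps37, Obox3-ps2 and Obox4-ps5, and these were the only 3 of the 46 Obox loci beside the members whose starts were outside a domain in any set. This list lies on another grid of bins than the sorted ones, and which cells it came from is not known.

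The sequence of the cluster is repetitive, though unevenly along its length. Of all 100-mers in the 1508 kb, 34.8% occur more than once on chromosome 7 on either strand, and of all 50-mers 53.4%. The share of 100-mers was 12.5% in the Obox domain left of Obox8, 16.3% in the other mESC DMSO domains of chromosome 7, 1.64% outside them and 1.07% in the gene-rich stretch from the right mESC DMSO border to the next domain, which holds Crx.

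The members were far apart in this respect. Repeated 100-mers made up 64.6% of Obox2, 68.4% of Obox1 and 55.6% of Obox3, and 15.1% of Obox6, 3.87% of Obox5, 1.37% of Obox7 and 0% of Obox8. The Obox1 value is for its whole annotated span of 168 kb, which overlaps Obox2 and Obox3, so these high values share sequence. Over 50 kb windows the highest share in the cluster was 95.4%, between Obox7 and Obox2, where the Obox4 pseudogenes are dense. The median window was at 30.2% in the cluster and 1.00% on the chromosome. Between Obox8 and Obox7, in windows centred -1475 to -1225 kb from the Obox6 start, the share was only 0.254 to 10.5%.

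The alignment placed reads with several best matches at random among them. H3K9me2 over Obox2, Obox1 and Obox3 may therefore be partly shared among copies of the same sequence. The part of this, and of copy number, which may differ between the BL6 and 129 chromosomes, in the domain calls was not tested. Soft-masked bases, those marked as repeats in the assembly, made up 58.8% of the cluster, 42.8% of the other mESC DMSO domains of chromosome 7 and 32.8% of that gene-rich stretch, and the GC content of the 3 was 41.3%, 40.3% and 48.5%.

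**Figure D5:**
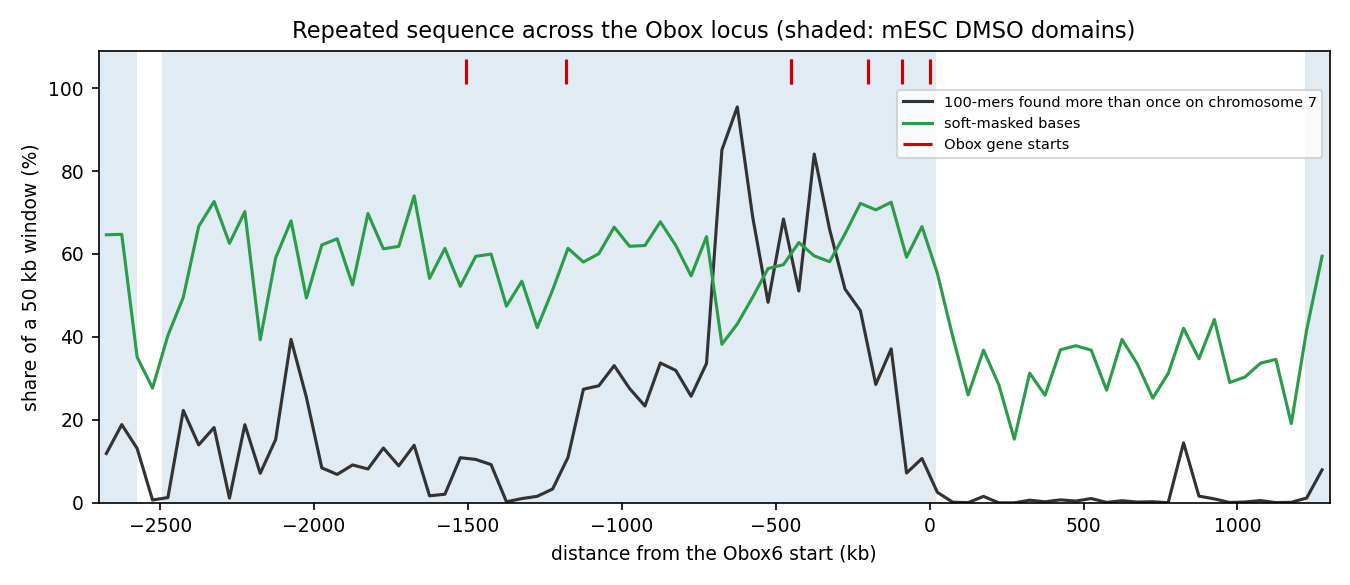
Lines give, for 50 kb windows along the locus in kb from the Obox6 start, the share of 100-mers found more than once on chromosome 7 and the share of soft-masked bases. Repeated 100-mers reach 95.4% between Obox7 and Obox2, and fall to 7.19% in the window 75 kb left of the Obox6 start, inside the shaded mESC DMSO domain, and soft-masked bases are lower right of that domain.

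The coding sequences fell into a close group and more distant members. Among Obox1, Obox2, Obox3, Obox5 and Obox7 the identity over aligned coding bases was 92.9 to 98.5%, highest between Obox2 and Obox1. Obox6 shared 76.2 to 80.9% with these 5. Obox8 shared 53.8 to 59.8% with the other members, a range like the 52.9 to 60.1% that Crx shared with the 7. Obox8 was nonetheless inside a domain in the same sets as the close group.

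For comparison, the starts of other homeobox genes were looked up in the same lists of domains. Of a chosen list of 19 genes of related or pluripotency homeobox families, 1 had its start inside in mESC DMSO (Isx) and 0 in mESC dTAG. In 2CLCs it was 1 with DMSO (Duxf3, of the family of the 2-cell activator Dux) and 2 with dTAG (Crx and Crxos). In a single sorted set 22.3 to 26.5% of all protein-coding starts were inside. In none of the 5 sets was any of Otx1, Otx2, Nanog and Pou5f1 inside, and 15 of the 19 were outside throughout. The share of all protein-coding genes outside in all 5 sets was not computed, so that count has no background beside it. The Rhox genes, a homeobox cluster of 34 genes on the X chromosome expressed in reproductive tissues, had 13 starts inside with DMSO and 8 with dTAG in mESCs, and 6 and 10 in 2CLCs, in 2 or 3 domains of 20 to 160 kb. None of the 34 was inside in all 5 sets. By the number of sets in which a gene shared the Obox state, the closest Rhox genes, at 4 of 5, were Rhox3c, Rhox2d, Rhox4d and Rhox2e.

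The Obox pattern was shared by other clusters of 2-cell genes, and by the Sult2a genes, Cabp5, Bsph1, Bsph2 and Vmn1r90. All 8 Zscan4 starts, of a zinc finger family that marks the 2-cell stage, all 5 Tdpoz starts and all 5 Usp17l starts were inside in the 5 sets, and so was Zfp352. Tcstv3 was inside in 5 sets and Tcstv1 only in 2CLC dTAG. Dppa4, an activator of 2-cell genes, was inside in 3 sets and Dppa2, its partner, in 1. Duxf3, also on the list of 2-cell genes, was inside only in 2CLC DMSO. Over all protein-coding genes, 15.1% of starts were inside in all 4 sorted sets, and the share inside in all 5 sets was not computed. The Zscan4, Tdpoz and Usp17l families each lay in 1 or 2 domains per sorted set, so their counts repeat a few locations.

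The clusters differed in how much domain surrounded them. The Zscan4 domain was 5275 kb wide in mESC DMSO and its gene closest to a border was 870 kb inside, against 20.0 kb for Obox6. The Tdpoz genes lay in 1 domain of 700 kb, the closest of them 43.3 kb from its border, and the Usp17l genes in 2 domains of 865 and 930 kb. In mESC dTAG the Zscan4 domain was 5590 kb wide, the Tdpoz domain 760 kb and the Usp17l domains 610 and 840 kb. From 2CLC DMSO to 2CLC dTAG the Zscan4 domain went from 5290 to 5740 kb, the Tdpoz domain from 735 to 700 kb, and the Usp17l domains from 1145 and 1680 kb to 465 and 735 kb, beside 2520 and 2595 kb for the Obox domain.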

How the data were processed

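ULI-NChIP reads were trimmed with Trim Galore and aligned by the authors with STAR (2.7.10) to mm10, with reads of several best matches placed at random among them. Duplicates were removed with Picard (2.26.0) and regions of artificially high signal were dropped. RPGC-scaled coverage was averaged over 10 kb on a 5 kb grid, and the log2 ratio to input was taken per bin. The authors grew each domain outward from high bins and stopped at the first low bin, both limits being percentiles of the ratio. Whether replicates were pooled, and whether the percentiles were set per list, is not given in the sources used here, so a domain is a position and not an amount of mark. The deposited lists hold chromosome, start and end, and the depth behind them is unknown.

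Starts were placed with Python (3.11.15) and numpy on GENCODE M21, after a check of the overlap code on simulated data. A gene counted as inside when its annotated start was in a domain. Coding sequences were the longest per gene and were aligned with Biopython. Genes named were the 7 members, the 3 nearest starts on each side, other starts in the Obox domain, and lists of homeobox and 2-cell genes. Genes of the neighbouring Vmn1r domain, Mzf1, Trim28, Chmp2a and Ube2m, and the 5 genes of the 75 kb 2CLC dTAG domain were named after their values were seen. Members, lists and limits were chosen with earlier results of these data known.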

Additional observations from a re-analysis of the deposited data

How the results depend on the processing

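No paired analysis was possible because each condition has 1 list and no sample has values of its own, and for the same reason no replicate could be left out in turn. All 7 Obox starts stayed inside in the 5 sets when any base or the whole of a gene body was counted, when domains were trimmed by 5 kb at each end or kept only at 50 kb or wider, and with the 6 RefSeq starts. With the 46 Obox pseudogenes and related loci added, the share inside was 94.3% in the unnamed set and 100% in the sorted sets. Joining domains up to 10 kb apart widened the mESC dTAG domain to 2830 kb, with the left border 1294 kb from Obox8, and raised its outward shift to 305 kb, and joining at 50 kb gave the same values. Joining at 50 kb also widened the 2CLC dTAG domain to 2890 kb, with its left border 1284 kb from Obox8 and a shift of 300 kb. These left-border values follow from taking in the Vmn1r domain. The right border moved under neither. With all annotated genes in place of protein-coding ones, 35.4% (DMSO) and 33.8% (dTAG) of starts were inside in mESCs, 35.0% and 36.7% in 2CLCs, and 44.5% in the unnamed set. Of 87 comparisons with an alternative, 15 moved by more than 5 kb, 5 percentage points or 1.5 times a count, and 72 did not.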

Other observations

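Outside chromosome 7, GENCODE lists 2 Obox pseudogenes, Obox3-ps8 and Obox6-ps1, both processed and both on chromosome 17. Their starts were inside a domain in the 4 sorted sets and the unnamed set.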
